A study of Mus musculus with 15 samples.

Results

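The nuclear genes for subunits of 4 complexes of oxidative phosphorylation were taken by symbol from the gene-level read counts of mouse hematopoietic stem cells (HSCs). A gene was included where its symbol, after removal of the number that marks a scaffold copy, began with Nduf followed by a, b, c, s or v and a digit (complex I), with Uqcr (complex III), with Cox4 to Cox8 (complex IV) or with Atp5 and a letter (complex V). This rule took 80 of 46102 genes, 37 for complex I, 8 for complex III, 18 for complex IV and 17 for complex V. Reads of scaffold copies were added to their gene, which concerned 4 of the 80 (Ndufa7, Ndufs3, Uqcrc1 and Atp5a1), and 9 pseudogene features, all without reads, were left out. All 15 libraries were made from 100 sorted cells each of wild-type C57BL/6 mice aged 8 to 10 weeks, with bone marrow as the tissue. The Untreated group (4 libraries) held HSCs of untreated mice, and the 5-FU day4 group (4 libraries) held HSCs of mice given 5-fluorouracil (5-FU), a drug that kills dividing cells, with day 4 in the sample titles. The Control group (3 libraries) and the Nifedipine group (4 libraries) held HSCs sorted after culture without or with nifedipine, a blocker of L-type calcium channels, from those within 3 divisions. The sources used here give neither dose nor time in culture. Whether the libraries of a group stem from different animals or wells is likewise unstated, and every p-value therefore refers to library-to-library spread, which may be technical.

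Oxidative phosphorylation takes electrons from NADH at complex I and from succinate at complex II, passes them through coenzyme Q, complex III and cytochrome c to oxygen at complex IV, and uses the proton gradient so built to make ATP at complex V, the ATP synthase. Complexes I, III, IV and V are each assembled from subunits of nuclear and of mitochondrial DNA. Resting HSCs are known for a low respiratory activity that increases when they enter the cell cycle. Of the mitochondrial genome, 37 features were listed in the tables with 0 reads in every library, so the subunits encoded there were not analysed here.

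The libraries held 6171730 to 26673045 exon reads, and members had 0 reads in all libraries only for Cox7b2 and Cox8c. HSC marker genes such as Procr, Fgd5 and Hlf were present in all 15 libraries, and the summed level of the 13 listed was 5295 to 5704 CPM (read counts scaled to a common library size) in Untreated, 3670 to 3980 in 5-FU day4, 1592 to 1657 in Control and 2491 to 2768 in Nifedipine libraries. Some libraries stood apart in transcripts of other cells: 8 erythroid genes summed to 1952 CPM in Untreated 2 and 2180 in Untreated 4 against 135 and 155 in Untreated 1 and 3, and 12 endothelial and stromal genes to 1919 CPM in Untreated 2 and 497 in 5-FU day4 4 against 102 to 125 in the remaining 5-FU libraries. Untreated 3 held the most transcripts of 10 genes of dividing cells in its group, 663 CPM against 156 to 304. The sum was 2497 to 2886 CPM in 5-FU day4, 2650 to 2877 in Control and 1795 to 2035 in Nifedipine libraries. By the tests described below, 10 of 10 genes were higher after 5-FU (26.8% of all tested genes) and 10 of 10 in culture (35.8%). With nifedipine 6 were lower and 1 higher (24.2% and 25.8% of all tested genes). Markers of B cells, of T and NK cells and of granulocytes and monocytes summed to at most 30.4, 13.7 and 42.5 CPM in any library. The 6 megakaryocyte markers summed to 114 to 205 CPM in Control and 38.2 to 49.0 in Nifedipine libraries. They summed to 59.0 to 71.6 CPM in Untreated and 32.1 to 51.1 in 5-FU day4 libraries. The 8 erythroid genes summed to 516 to 543 CPM in Control, 369 to 433 in Nifedipine and 333 to 414 in 5-FU day4 libraries. The part of these cells and of division in the results below was not tested. Counts after 5-FU are given also without Untreated 2 and 4, and without Untreated 3 and 5-FU day4 4.

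Subunit genes were higher after 5-FU, higher again in cultured cells and lower with nifedipine than in cultured controls (the plot of summed levels by complex). The genes of complex V summed to 1704, 1602, 1828 and 1585 CPM in Untreated and to 3134, 3068, 2784 and 2957 CPM in 5-FU day4 libraries. In culture they summed to 4781, 4627 and 4639 CPM without and to 3032, 2757, 3091 and 3104 CPM with nifedipine. No library of a group overlapped with those of the group it was compared with, and the ratio of means was 1.78 after 5-FU and 0.640 with nifedipine. Complex III genes went from 393 ± 16.8 (SD, n = 4) to 597 ± 43.6 CPM (n = 4) after 5-FU, and from 860.5 ± 20.4 (n = 3) to 600.0 ± 22.6 CPM (n = 4) with nifedipine. Complex I genes summed to 1068 ± 57.3, 1653 ± 69.7, 2328 ± 60.8 and 1812 ± 108 CPM in Untreated, 5-FU day4, Control and Nifedipine libraries. That sum holds Ndufa4 and Ndufa4l2, whose products are known as subunits of complex IV. Without them it was 970 ± 56.2, 1445 ± 60.7, 2031 ± 59.0 and 1554 ± 78.0 CPM, with ratios of 1.49 after 5-FU and 0.765 with nifedipine. Complex IV had the ratios closest to 1, with 1.42 after 5-FU and 0.827 with nifedipine, and its sum holds Cox7a2l, which encodes a factor for supercomplexes and changed against the other genes. Without Cox7a2l the complex IV sum was 417 ± 28.6, 750.2 ± 53.0, 1069 ± 39.1 and 802 ± 66.1 CPM, with ratios of 1.80 and 0.751. With Ndufa4 and Ndufa4l2 also counted in it, the ratios were 1.86 and 0.776. In a bulk sample fewer cells of a type and less RNA per cell cannot be told apart.

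**Figure D1:**
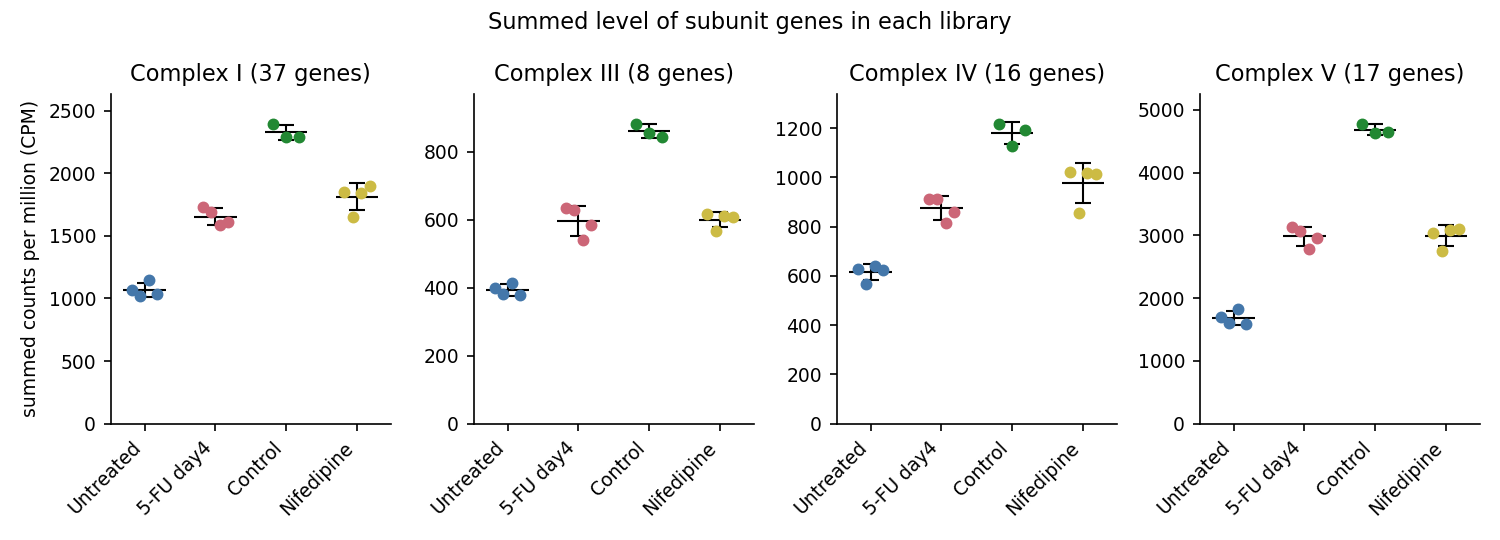
Summed CPM of the subunit genes of complexes I, III, IV and V (y axis, from 0) in each library (points) of the 4 groups (x axis), with the group mean and SD (bars). In each complex the Untreated libraries are lowest and the Control libraries highest, and the complex V sums are 1585 to 1828 CPM in Untreated and 4627 to 4781 CPM in Control libraries.

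Genes were tested one by one with edgeR's quasi-likelihood F test over all genes that passed its filter on low counts, and called at a Benjamini-Hochberg adjusted p of 0.05 or less. Of the 80 genes, 74 passed the filter in the comparison of 5-FU day4 with Untreated; 65 of them were called higher and 2 lower, where 26.8% of all 13382 tested genes were called higher and 23.8% lower. By complex, 31 of 36 rose for complex I, 8 of 8 for complex III, 11 of 13 for complex IV and 15 of 17 for complex V, with median log2 fold changes of 0.62, 0.79, 0.87 and 0.81 beside -0.02 over all tested genes. The 2 that fell were Cox7a2l and Atp5s. In the comparison of Nifedipine with Control, 54 of 75 fell and 3 rose, where 24.2% of 12805 tested genes were called lower and 25.8% higher. The genes that fell were 24 of 36 for complex I, 6 of 8 for complex III, 9 of 14 for complex IV and 15 of 17 for complex V, with medians of -0.42, -0.60, -0.38 and -0.53 beside 0.02 over all genes. Between Control and Untreated libraries, 66 of 74 were higher and 3 lower (35.8% and 36.2% of 13518 genes), with medians of 1.22, 1.47, 1.33 and 1.32 beside -0.05 over all genes. Scaling by the read totals behind the deposited RPKM values moved the all-gene median to 0.17, 0.06 and 0.18 in the 3 comparisons and the share of higher among called genes from 52.9% to 73.6%, from 51.6% to 58.1% and from 49.8% to 60.1%. On that scale 69 members were higher and 2 lower after 5-FU (38.5% and 13.8% of all genes), 3 higher and 48 lower with nifedipine (24.9% and 17.9%) and 69 higher and 2 lower in culture (43.2% and 28.7%). Culture and a separate experiment cannot be told apart in that last comparison, which shares the Untreated libraries with the first and the Control libraries with the second. All 5-FU libraries lay above all Untreated libraries for 63 members (24.1% of all genes) and below them for 3 (23.3%). With nifedipine 58 were below every Control library (25.5%) and 3 above (25.7%), and 66 were above every Untreated library in culture (34.6%) and 3 below (37.4%). Differences between complexes were not tested. Without Untreated 2 and Untreated 4, 59 members were called higher and 2 lower after 5-FU, beside 2971 and 2444 of all 13821 tested genes. Without Untreated 3 and 5-FU day4 4 the counts were 64 and 3, beside 3470 and 3141 of 13440 genes. With no library left out, 3580 and 3184 of all 13382 genes were called higher and lower.

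**Figure D2:**
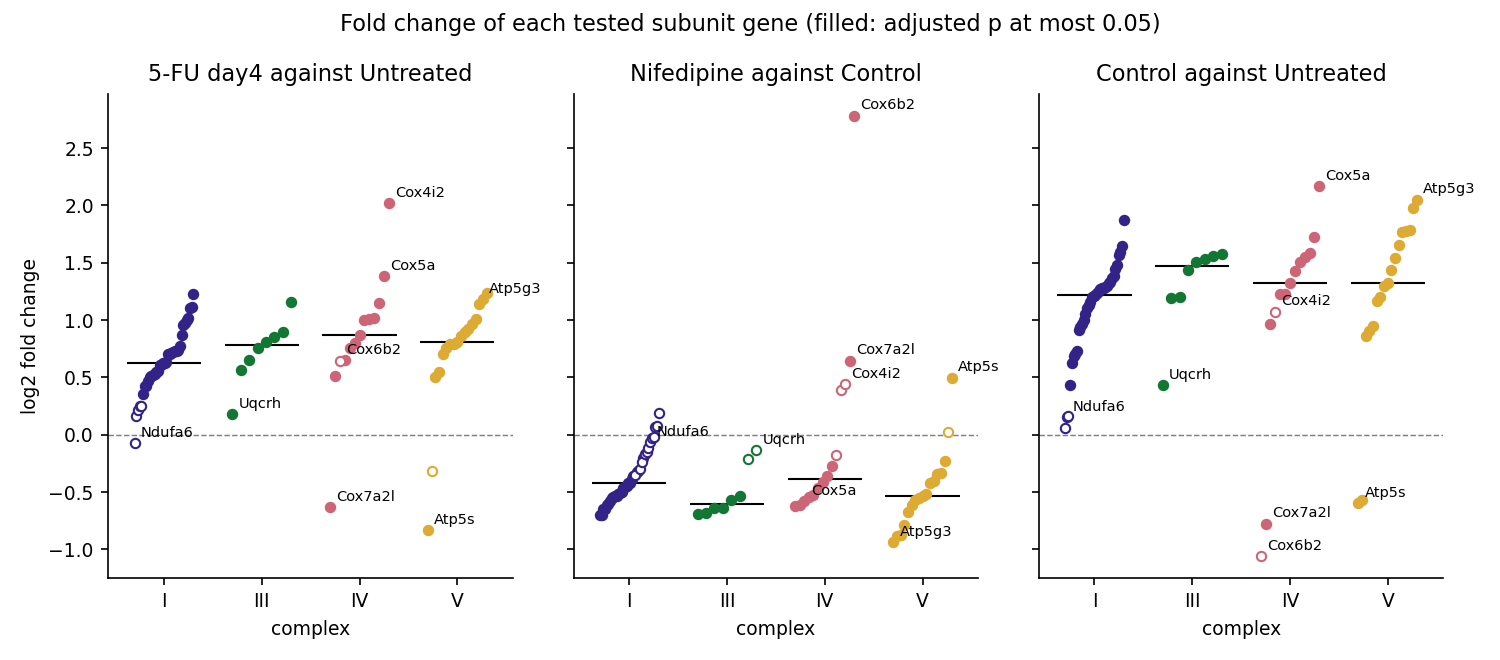
Log2 fold change (y axis) of each tested subunit gene by complex (x axis) in the 3 comparisons, filled where called, with the median of each complex as a line. Most genes lie above 0 after 5-FU and in culture and below 0 with nifedipine, and Cox7a2l and Atp5s lie on the other side in each panel.

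The 250 bases before the start of 5 members are shown because they are among the genes that rose after 5-FU and 4 of them hold short sequences bound by known regulators of respiratory genes: GCATGCGC of nuclear respiratory factor 1 (NRF1), CCGGAAGT of ETS factors such as GABPA, and AAGATGGCG of YY1, with GGGCGG of SP1 searched as well. Each was searched for on both strands from 250 bases before to 50 bases after every start in RefSeq (GRCm38.p6), where 66 of the 80 genes had an entry. The NRF1 letters occurred in 9 of 66 members (13.6%) and in 824 of 27025 genes of the table (3.05%), the ETS letters in 5 members (7.58%) and 4.31% of all, the YY1 letters in 8 members (12.1%) and 1.64% of all, and the SP1 letters in 26 members (39.4%) and 38.2% of all. Any of the first 3 was found in 9 of 32 genes of complex I, 3 of 5 of complex III, 2 of 13 of complex IV and 7 of 16 of complex V. Over all genes of the table the share was 8.47%. The first 4 are, for complexes I, III, IV and V, the called genes with the largest fold change after 5-FU among those with such a match before the start, and the last is the called gene with the largest fold change that holds none of the 4 motifs. Capitals mark the matches, and positions count back from -1 at the base before the start.
Ndufa8 (chr2:36049339-36049588, minus strand): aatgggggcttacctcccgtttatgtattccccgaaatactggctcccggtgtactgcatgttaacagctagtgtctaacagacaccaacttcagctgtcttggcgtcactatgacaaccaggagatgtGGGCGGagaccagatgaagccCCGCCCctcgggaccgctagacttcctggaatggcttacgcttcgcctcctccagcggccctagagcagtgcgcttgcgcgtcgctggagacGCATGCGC
Uqcr11 (chr10:80406822-80407071, minus strand): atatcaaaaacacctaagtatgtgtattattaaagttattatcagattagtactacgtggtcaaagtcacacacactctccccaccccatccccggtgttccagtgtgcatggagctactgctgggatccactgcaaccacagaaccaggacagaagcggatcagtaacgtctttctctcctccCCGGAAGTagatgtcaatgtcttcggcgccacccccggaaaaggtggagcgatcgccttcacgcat
Cox6a1 (chr5:115348959-115349208, minus strand): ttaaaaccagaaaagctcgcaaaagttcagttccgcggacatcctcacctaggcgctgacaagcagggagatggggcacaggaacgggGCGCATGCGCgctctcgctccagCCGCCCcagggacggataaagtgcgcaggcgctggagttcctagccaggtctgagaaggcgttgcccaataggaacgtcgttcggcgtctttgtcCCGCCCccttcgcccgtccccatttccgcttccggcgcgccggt
Atp5k (chr5:108434400-108434649, minus strand): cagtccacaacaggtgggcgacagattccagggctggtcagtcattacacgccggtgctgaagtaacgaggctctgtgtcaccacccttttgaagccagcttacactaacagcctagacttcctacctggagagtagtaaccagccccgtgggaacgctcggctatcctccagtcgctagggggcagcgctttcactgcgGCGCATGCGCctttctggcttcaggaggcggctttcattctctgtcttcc
Atp5g1 (chr11:96075632-96075881, minus strand): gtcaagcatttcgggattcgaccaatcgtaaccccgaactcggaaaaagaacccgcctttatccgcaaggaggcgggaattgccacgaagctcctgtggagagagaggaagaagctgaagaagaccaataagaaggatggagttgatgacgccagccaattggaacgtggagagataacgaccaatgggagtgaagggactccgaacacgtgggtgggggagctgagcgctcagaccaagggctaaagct
In Ndufa8 the NRF1 letters lie at -8, next to the start, and SP1 letters at -121 and -100. In Uqcr11 the ETS letters lie at -66, and its NRF1 letters are not within the bases shown. In Cox6a1 and Atp5k the NRF1 letters are found on both strands in overlap, at -162 and -160 and at -50 and -48. The 21 tested members with any of the first 3 motifs had a median log2 fold change of 0.73 after 5-FU, and the 42 without 0.76. With nifedipine these medians were -0.46 and -0.47. A match is a description of letters and not of binding.

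Complex I is built from a core conserved from bacteria, which holds the NADH-binding N module and the Q module that reduces coenzyme Q, and from accessory subunits around it. All 7 core genes of the nucleus were above 0 on the log2 scale after 5-FU and 6 were called higher (26.8% of all tested genes). With nifedipine 6 of 7 were called lower (24.2% of all tested genes). Ndufs1, the largest subunit of the N module (mm10 chromosome 1, 63143592 to 63176822), stood at 82.6, 88.3, 85.2 and 73.7 CPM in Untreated and 132, 127, 129 and 114 CPM in 5-FU day4 libraries. In culture it stood at 228, 218 and 204 CPM without and 141, 122, 138 and 134 CPM with nifedipine. Neither pair of groups overlapped, and the log2 fold changes were 0.63 (SE 0.0708, adjusted p = 4.60e-05) and -0.70 (SE 0.0689, adjusted p = 2.02e-07). Ndufv1, which binds NADH, was at 35.1, 29.7, 41.1 and 30.8 CPM in Untreated, 48.8, 46.7, 49.9 and 47.9 in 5-FU day4, 60.0, 62.2 and 67.6 in Control and 46.5, 40.0, 47.5 and 51.5 in Nifedipine libraries. It rose by 0.52 after 5-FU (adjusted p = 0.00199) and fell by 0.45 with nifedipine (adjusted p = 0.000799). The one core gene not called after 5-FU was Ndufs7 (0.22, adjusted p = 0.0964), and Ndufs3 was the one not called with nifedipine (-0.17, adjusted p = 0.148).

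Of 28 accessory genes of complex I, 24 rose after 5-FU (26.8% of all tested genes) and 17 fell with nifedipine (24.2%). These genes are short, with a median of 643 bases of exon. With the exon length trend removed 16 were higher and 2 lower after 5-FU (27.1% and 22.2% of all genes). In that fit 10 were lower and 3 higher with nifedipine (24.6% and 24.8%). With GC content removed as well, 11 were higher and 3 lower after 5-FU (27% and 22.1%). Ndufb6, a membrane arm subunit (chromosome 4, 40270591 to 40279421), had the largest change of complex I after 5-FU, from 26.5, 24.3, 28.6 and 20.2 CPM to 65.1, 63.9, 51.2 and 48.6 CPM, a log2 fold change of 1.23 (SE 0.14, adjusted p = 4.49e-05). It reached 91.5, 87.2 and 84.7 CPM in Control and 58.1, 53.1, 60.9 and 70.9 CPM in Nifedipine libraries (-0.53, adjusted p = 0.000108). The lowest library of each higher group lay above the highest of the lower one; Ndufb6 shares exon bases with Smim27 on the opposite strand, and the library kit named in the labels does not mark strand. Ndufa1, a small membrane subunit, went from 24.0, 26.4, 26.7 and 26.5 CPM to 60.0, 55.1, 52.0 and 51.4 CPM after 5-FU (1.11, adjusted p = 6.05e-06). Unlike Ndufb6 it showed no call with nifedipine, with 67.7, 60.0 and 58.9 CPM in Control and 67.7, 51.7, 65.7 and 76.2 CPM in Nifedipine libraries, which overlapped (0.07, adjusted p = 0.617). Ndufa5 had the largest fall of complex I with nifedipine, from 26.3, 22.1 and 24.9 CPM to 15.5, 15.9, 15.3 and 13.6 CPM (-0.70, adjusted p = 0.000189). Its fresh libraries stood at 9.98, 7.46, 14.2 and 14.2 CPM in Untreated and 21.7, 19.2, 19.3 and 17.5 CPM in 5-FU day4. Ndufa11 fell from 14.9, 12.7 and 15.7 to 9.14, 7.42, 9.78 and 10.5 CPM with nifedipine (-0.65, adjusted p = 0.00405), and was at 5.35, 5.22, 7.38 and 6.37 CPM in Untreated and 9.51, 8.10, 9.83 and 9.51 CPM in 5-FU day4 libraries. Both genes were lower in every Nifedipine library than in every Control library. Ndufs6, a zinc-binding subunit, was at 11.4, 12.2, 17.1 and 14.2 CPM in Untreated, 29.6, 26.2, 26.8 and 26.6 in 5-FU day4, 41.8, 45.6 and 33.0 in Control and 23.1, 24.2, 25.5 and 29.7 in Nifedipine libraries. It rose by 1.01 after 5-FU and by 1.59 between Untreated and Control libraries, and fell by 0.64 with nifedipine.

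The accessory genes of complex I Ndufa6, Ndufb11 and Ndufs4 were tested and called in none of the 3 comparisons, but their calls depended on the scaling. Ndufa6 (chromosome 15, 82350139 to 82354291) stood at 46.6, 41.9, 44.1 and 44.1 CPM in Untreated, 40.8, 43.4, 37.1 and 43.7 in 5-FU day4, 49.6, 48.0 and 44.8 in Control and 47.3, 43.8, 45.1 and 45.3 in Nifedipine libraries. The libraries overlapped in each pair of groups compared, and its level after 5-FU relative to Untreated was 0.951 times (log2 -0.07, SE 0.0808, adjusted p = 0.488). With the exon length trend removed Ndufa6 was called lower after 5-FU (-0.56, adjusted p = 0.000483) and in culture (-0.59, adjusted p = 0.000274), and under RPKM read totals it was called higher in culture (0.39, adjusted p = 0.00259). Ndufs4, a subunit added late in assembly, had log2 fold changes of 0.25, -0.12 and 0.17, and without Untreated 2 it was called higher after 5-FU (0.35, adjusted p = 0.00812), as it was under RPKM read totals (0.45, adjusted p = 0.00390). Ndufb11 had 0.26, 0.19 and 0.06, and with the length trend removed it was called lower in culture (-0.54, adjusted p = 0.00805) and higher with nifedipine (0.36, adjusted p = 0.0148). Ndufb11 shares exon bases with Rbm10 on the opposite strand.

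The symbols Ndufa4 and Ndufa4l2 are kept from an earlier assignment to complex I, and both products are known as subunits of complex IV. Ndufa4 (chromosome 6, 11900373 to 11907446) was among the most abundant members. It stood at 94.4, 100, 101 and 97.1 CPM in Untreated and 222, 207, 197 and 206 CPM in 5-FU day4 libraries, a rise of 1.11 (SE 0.0547, adjusted p = 1.50e-06). In culture, the Control libraries had 299, 294 and 297 CPM and the Nifedipine libraries 254, 216, 264 and 298 CPM. These overlapped, since Nifedipine 4 reached the Control level, and the call with nifedipine (-0.20, adjusted p = 0.0474) was lost without any one of 6 of the 7 libraries, Nifedipine 4 being the exception (adjusted p up to 0.125). Ndufa4l2, the isoform that low oxygen induces, had 11 reads over all 15 libraries. In CPM it was at 0, 0, 0 and 0 in Untreated, 0.0553, 0, 0.117 and 0 in 5-FU day4, 0.254, 0.0545 and 0 in Control and 0, 0, 0 and 0.0490 in Nifedipine libraries, with 6 of the reads in Control 1.

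Complex III passes electrons from coenzyme Q to cytochrome c. Its 3 genes for core and catalytic proteins rose after 5-FU and fell with nifedipine. Uqcrfs1, the Rieske iron-sulfur protein of the catalytic core, was at 51.2, 46.0, 55.5 and 48.4 CPM in Untreated, 89.1, 86.5, 59.7 and 75.4 in 5-FU day4, 114, 109.7 and 111 in Control and 79.7, 71.0, 72.6 and 84.5 in Nifedipine libraries. Its log2 fold changes were 0.65 (adjusted p = 0.00135) and -0.54 (adjusted p = 1.58e-05), with no overlap of groups and with 5-FU day4 3 the lowest of its group. Uqcrc1, a core protein on the matrix side, was at 54.1, 50.3, 70.4 and 57.4 CPM in Untreated, 111, 107, 93.5 and 101 in 5-FU day4, 151, 156 and 149 in Control and 85.0, 90.9, 105 and 96.9 in Nifedipine libraries. It rose by 0.85 (SE 0.10, adjusted p = 7.91e-05) after 5-FU and fell by 0.69 (SE 0.0757, adjusted p = 7.27e-07) with nifedipine. The third, Uqcrc2, had 0.56 and -0.57.

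Among the 5 small subunits of complex III, Uqcr10 (chromosome 11, 4701968 to 4704364) had the largest change in each comparison. It was at 16.5, 13.7, 16.2 and 15.8 CPM in Untreated, 37.0, 38.4, 29.2 and 32.3 in 5-FU day4, 47.3, 46.9 and 40.7 in Control and 27.9, 24.3, 30.1 and 29.4 in Nifedipine libraries. All libraries of these groups were apart in the pairs compared, with log2 fold changes of 1.16 (adjusted p = 2.54e-05) and -0.69 (adjusted p = 3.89e-05). Uqcrb, at the site of coenzyme Q binding, was at 47.1, 44.0, 39.1 and 35.9 CPM in Untreated, 78.3, 75.5, 72.5 and 76.9 in 5-FU day4, 123, 113 and 105 in Control and 86.5, 65.6, 73.7 and 65.6 in Nifedipine libraries. Uqcr11 was at 23.1, 24.8, 21.9 and 20.2 CPM in Untreated, 38.6, 42.4, 32.5 and 35.5 in 5-FU day4, 59.0, 68.3 and 64.1 in Control and 39.8, 40.6, 39.4 and 44.3 in Nifedipine libraries. Both rose after 5-FU (0.90 and 0.76) and fell by 0.64 with nifedipine. Uqcrq was at 8.81, 11.3, 11.3 and 9.17 CPM in Untreated, 18.2, 17.6, 19.1 and 14.8 in 5-FU day4, 26.8, 27.0 and 30.9 in Control and 23.0, 25.4, 25.6 and 23.4 in Nifedipine libraries, so it rose after 5-FU (0.81) while the difference with nifedipine was not called (-0.21, adjusted p = 0.135).

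Uqcrh, the hinge protein that helps cytochrome c to bind, differed from the rest of complex III by the size of its change. It stood at 90.5, 94.1, 93.9 and 95.2 CPM in Untreated and 108, 107, 92.3 and 107 CPM in 5-FU day4 libraries, which overlapped through 5-FU day4 3. The Control libraries had 131, 112 and 123 CPM and the Nifedipine libraries 120.3, 108, 113 and 103 CPM. The difference after 5-FU, 0.18 (SE 0.0636, adjusted p = 0.0351), passed the threshold with all 8 libraries and was lost without Untreated 1, 2, 3 or 4 or without 5-FU day4 1, 2 or 4, with an adjusted p of up to 0.120. With the exon length trend removed it had the other sign, -0.32 (adjusted p = 0.00554).

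Complex IV, cytochrome c oxidase, has 10 ubiquitous nuclear subunits under the symbols taken here. All 10 rose after 5-FU (26.8% of all tested genes) and 9 fell with nifedipine (24.2%), Cox6c being the one not called (-0.17, adjusted p = 0.126). Cox4i1, the largest nuclear subunit, was at 95.7, 92.5, 107 and 100.1 CPM in Untreated, 149, 137, 133 and 134 in 5-FU day4, 181, 187 and 189.7 in Control and 159.9, 142, 164 and 149.8 in Nifedipine libraries. Its changes were the smallest of the 10 after 5-FU (0.51, adjusted p = 8.79e-05) and, after Cox6c, the smallest with nifedipine (-0.27, adjusted p = 0.00236). The latter call was lost with the exon length trend removed (-0.10, adjusted p = 0.207) and under RPKM read totals (-0.22, adjusted p = 0.0990). Cox5a (chromosome 9, 57521232 to 57532427), which binds next to Cox4i1 early in assembly, was at 23.7, 18.5, 22.4 and 23.6 CPM in Untreated and 60.5, 61.3, 52.1 and 53.6 CPM in 5-FU day4 libraries. It reached 93.1, 94.1 and 101 CPM in Control and 71.5, 54.9, 63.2 and 67.6 CPM in Nifedipine libraries. The 5-FU libraries all stood above Untreated and the Nifedipine libraries all below Control, with log2 fold changes of 1.39 (SE 0.10, adjusted p = 5.26e-06) and -0.58 (SE 0.0889, adjusted p = 3.02e-05). Cox5b, the zinc-binding subunit, was at 44.2, 41.0, 50.015 and 42.7 CPM in Untreated, 96.2, 101, 74.7 and 81.8 in 5-FU day4, 127, 118 and 133 in Control and 78.8, 76.0, 79.9 and 92.2 in Nifedipine libraries. Cox6a1 was at 30.7, 30.7, 38.9 and 29.2 CPM in Untreated, 70.6, 66.1, 59.5 and 57.8 in 5-FU day4, 95.6, 91.4 and 93.9 in Control and 62.6, 51.8, 65.6 and 64.4 in Nifedipine libraries. Cox5b and Cox6a1 rose by 1.02 and 1.00 after 5-FU and fell by 0.62 and 0.61 with nifedipine, with no overlap of the groups compared. Cox7b, a small membrane subunit, was at 44.2, 40.1, 51.4 and 44.991 CPM in Untreated, 100, 104, 87.8 and 103 in 5-FU day4, 157, 135 and 141 in Control and 120.1, 100.1, 113 and 118 in Nifedipine libraries, a rise of 1.15 (adjusted p = 6.69e-06) and a fall of 0.36 (adjusted p = 0.000960).

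Of the complex IV genes 7 are isoforms of particular tissues or conditions, and 5 of them were near 0. Cox7b2 and Cox8c, known from testis, had no read, and the muscle forms Cox6a2, Cox8b and Cox7a1 had 9, 32 and 134 reads over all libraries. Cox4i2, the oxygen-responsive isoform of the largest nuclear subunit (chromosome 2, 152752537 to 152765039), was at 1.56, 1.49, 2.46 and 0.845 CPM in Untreated and 3.59, 8.40, 5.50 and 8.11 CPM in 5-FU day4 libraries. The groups did not overlap, and the log2 fold change of 2.02 (SE 0.39, adjusted p = 0.00155) was the largest of all members after 5-FU. Its reads were still 1.60% ± 0.599 (SD, n = 4) of the reads per kilobase of the Cox4i pair after 5-FU, against 0.551% ± 0.204 (n = 4) in Untreated libraries. In the same order of libraries, the endothelial and stromal genes summed to 528, 1919, 145 and 546 CPM in Untreated libraries. In 5-FU day4 libraries they summed to 102, 108, 125 and 497 CPM. The part of these cells in the Cox4i2 level was not tested. In culture Cox4i2 was at 2.92, 2.34 and 4.47 CPM without and 3.45, 3.80, 5.77 and 4.55 CPM with nifedipine, a difference that was not called (0.44, adjusted p = 0.288). Cox6b2, best known from testis (chromosome 7, 4751792 to 4753094), was at 0.845, 0.926 and 1.40 CPM in Control and 8.96, 6.25, 6.33 and 7.59 CPM in Nifedipine libraries, 6.89-fold higher (log2 2.78, SE 0.32, adjusted p = 1.35e-06). In fresh cells it was at 2.84, 1.04, 3.43 and 1.69 CPM in Untreated and 3.65, 3.85, 3.74 and 2.92 CPM in 5-FU day4 libraries, which overlapped (0.65, adjusted p = 0.163). Its share of the Cox6b pair per kilobase was 0.837% ± 0.195 (n = 3) in Control and 7.24% ± 1.15 (n = 4) in Nifedipine libraries, and 4.36% ± 1.71 (n = 4) in Untreated libraries.

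A pair of genes with symbols of complexes IV and V changed against the common direction in all 3 comparisons, and neither encodes a regular subunit. Cox7a2l (chromosome 17, 83501917 to 83514333) encodes a factor that joins complexes III and IV into supercomplexes, of which C57BL/6 mice are known to carry a shortened form. It was at 207, 178, 183 and 219 CPM in Untreated, 119, 119.6, 127 and 134 in 5-FU day4, 119, 104 and 110.0 in Control and 191, 151, 181 and 173 in Nifedipine libraries. The Untreated and Nifedipine libraries were high and the 5-FU and Control libraries low, without overlap in any pair compared. It fell by 0.63 after 5-FU (SE 0.0747, adjusted p = 6.83e-05), rose by 0.65 with nifedipine (SE 0.0814, adjusted p = 3.27e-06) and was lower by 0.77 on the log2 scale in Control than in Untreated libraries. Set beside its relative Cox7a2, which is a subunit of complex IV, Cox7a2l made 81.6% ± 2.38 (n = 4) of the pair per kilobase in Untreated, 59.1% ± 4.62 (n = 4) in 5-FU day4, 48.0% ± 1.71 (n = 3) in Control and 66.6% ± 1.15 (n = 4) in Nifedipine libraries. Atp5s (chromosome 12, 69724927 to 69744665), a coupling factor that is not a subunit of the purified ATP synthase, was at 23.5, 28.8, 23.2 and 21.3 CPM in Untreated, 13.1, 12.2, 14.6 and 13.3 in 5-FU day4, 16.3, 16.4 and 13.5 in Control and 18.3, 26.9, 19.8 and 22.1 in Nifedipine libraries. It fell by 0.83 after 5-FU (adjusted p = 0.000306) and rose by 0.50 with nifedipine (adjusted p = 0.0103), a call lost without Control 3 (adjusted p = 0.0558). Atp5sl, now known as an assembly factor of complex I, was at 24.6, 25.7, 23.6 and 25.1 CPM in Untreated, 15.035, 21.6, 18.9 and 22.4 in 5-FU day4, 15.4, 15.7 and 17.3 in Control and 17.6, 16.6, 14.6 and 16.5 in Nifedipine libraries. It was called only between Control and Untreated libraries (-0.57, adjusted p = 0.00171), and its difference after 5-FU was -0.32 (adjusted p = 0.0676), called without 5-FU day4 4 (-0.39, adjusted p = 0.0443).

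**Figure D3:**
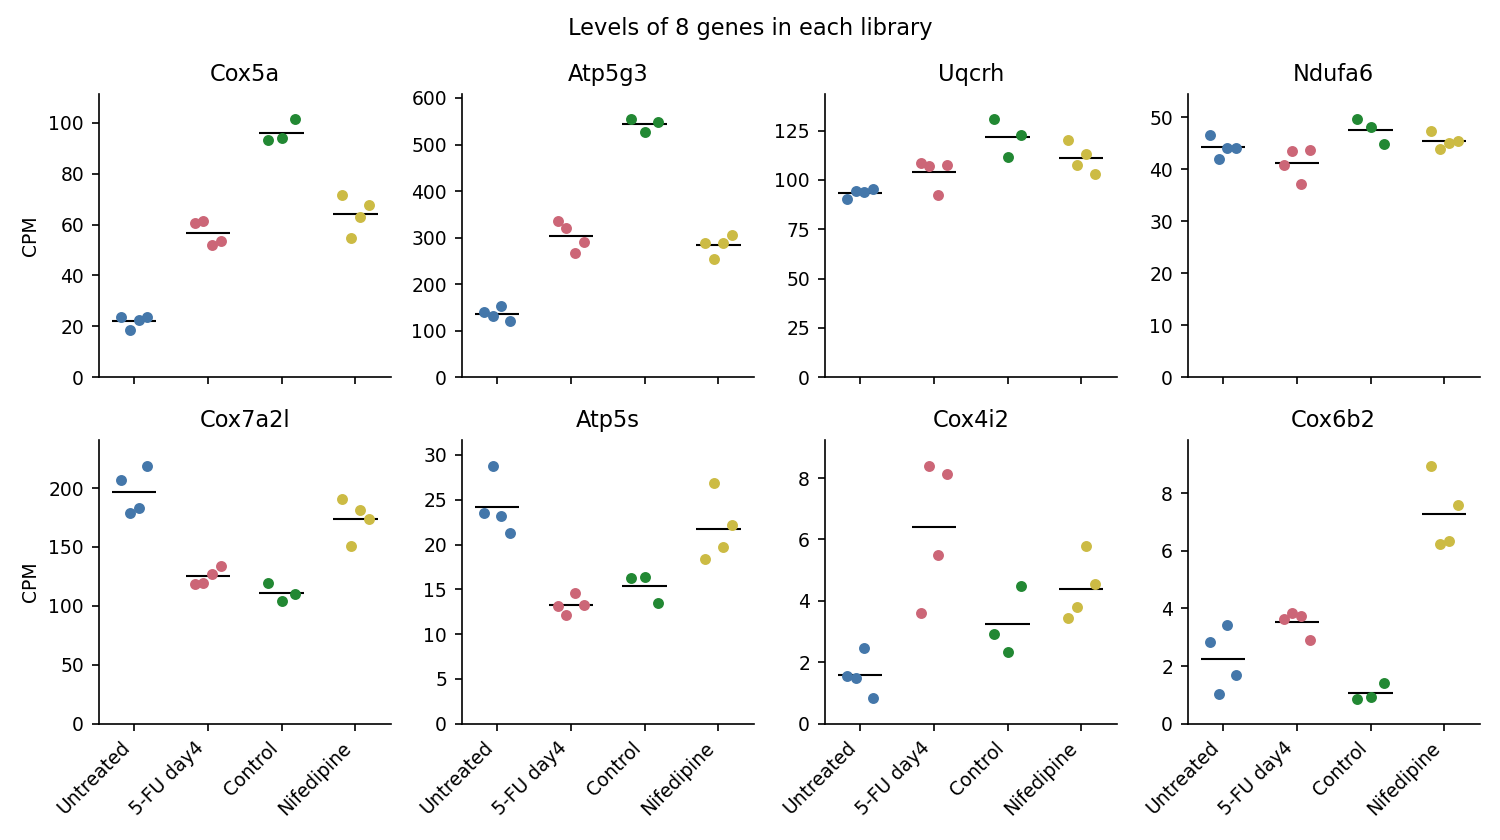
CPM (y axis, from 0) of 8 genes in each library (points) of the 4 groups (x axis), with the group mean as a line. Cox5a and Atp5g3 are lowest in Untreated and highest in Control libraries, Uqcrh and Ndufa6 differ less, and Cox6b2 is highest with nifedipine. By group mean Cox7a2l and Atp5s are highest in Untreated libraries, which overlap with Nifedipine libraries. Cox4i2 has its highest mean after 5-FU, where the libraries overlap with cultured ones.

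Complex V makes ATP in its F1 head, driven by rotation of a ring of c subunits in the membrane. All 15 genes for its subunits rose after 5-FU (26.8% of all tested genes) and all 15 fell with nifedipine (24.2%). With the exon length trend removed, 13 were higher after 5-FU (27.1% of all genes) and 12 lower with nifedipine (24.6%). With nifedipine the calls of Atp5e (-0.18, adjusted p = 0.178), Atp5g2 (-0.15, adjusted p = 0.0929) and Atp5l (-0.03, adjusted p = 0.762) were lost. Atp5b, the catalytic beta subunit of F1 (chromosome 10, 128083307 to 128090388), was at 359, 329, 393 and 349.7 CPM in Untreated and 731, 739, 660.3 and 693 CPM in 5-FU day4 libraries. In culture it was at 1193, 1151 and 1180.2 CPM without and 678, 609.6, 706 and 722 CPM with nifedipine. These groups were well apart, with log2 fold changes of 1.01 (SE 0.0616, adjusted p = 2.86e-06) and -0.79 (SE 0.0580, adjusted p = 5.11e-09). Atp5a1, the alpha subunit that alternates with beta, was at 471, 444, 471 and 446 CPM in Untreated, 746, 748, 682 and 759 in 5-FU day4, 1241, 1155 and 1191 in Control and 742, 702, 775 and 786 in Nifedipine libraries. It rose by 0.71 (adjusted p = 3.69e-06) and fell by 0.67 (adjusted p = 1.54e-08). The other 3 F1 genes, Atp5c1, Atp5d and Atp5e, had 0.76, 0.54 and 0.79 after 5-FU and -0.53, -0.51 and -0.40 with nifedipine.

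The c ring is encoded by Atp5g1, Atp5g2 and Atp5g3, which give the same mature protein from different precursors. Atp5g3 (chromosome 2, 73908447 to 73911326) was at 141, 131, 153 and 119.7 CPM in Untreated and 335, 320.2, 266 and 291 CPM in 5-FU day4 libraries, and at 554, 528 and 548 CPM in Control and 288, 255, 289 and 305 CPM in Nifedipine libraries. No Nifedipine library reached the lowest Control library, and -0.93 (SE 0.0627, adjusted p = 1.96e-09) was the largest fall among members. Atp5g1 (chromosome 11, 96072793 to 96075694) was at 19.3, 18.6, 27.3 and 15.8 CPM in Untreated, 51.2, 49.7, 46.6 and 40.5 in 5-FU day4, 75.014, 78.0 and 78.3 in Control and 38.6, 37.6, 48.8 and 41.9 in Nifedipine libraries. It had the largest rise of complex V after 5-FU, 1.24 (SE 0.16, adjusted p = 0.000114), against 1.18 for Atp5g3. Atp5g2 changed less, by 0.80 after 5-FU and -0.34 with nifedipine, so the makeup of the family shifted. Per kilobase, Atp5g2 made 33.9% ± 1.02 (n = 4) of the 3 genes in Untreated, 28.2% ± 1.21 (n = 4) in 5-FU day4, 19.4% ± 0.105 (n = 3) in Control and 26.6% ± 1.84 (n = 4) in Nifedipine libraries, while Atp5g3 made 58.8% ± 1.26, 63.6% ± 1.47, 72.1% ± 0.402 and 65.4% ± 1.57. The difference between the genes was not tested, and the groups compared did not overlap in the shares of Atp5g2.

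The stalk that links ring and head showed the same direction in its 4 genes. Atp5f1, its b subunit, was at 145, 148, 162 and 131 CPM in Untreated, 297, 286, 263 and 275 in 5-FU day4, 493, 504 and 465 in Control and 351, 296, 338 and 329 in Nifedipine libraries (0.96 and -0.57). Atp5o, the oligomycin sensitivity protein, was at 35.1, 35.2, 44.8 and 35.1 CPM in Untreated, 89.5, 79.0, 77.9 and 78.5 in 5-FU day4, 119.6, 124 and 128 in Control and 81.6, 78.7, 88.3 and 90.8 in Nifedipine libraries (1.14 and -0.55). Neither gene showed overlap between the groups compared, although Untreated 3 stood above its group for Atp5o. Of the small membrane subunits, Atp5k was at 9.64, 8.06, 14.1 and 9.69 CPM in Untreated, 21.2, 21.9, 19.4 and 15.2 in 5-FU day4, 33.8, 33.4 and 28.1 in Control and 17.5, 14.4, 19.6 and 17.8 in Nifedipine libraries. It rose by 0.92 (adjusted p = 0.00231) and fell by 0.87 (adjusted p = 2.07e-05), and its 292 bases of exon are the fewest of any member.

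Levels between genes were compared as CPM per kilobase of exon. In Untreated libraries Ndufa4 (199.5 ± 6.23, n = 4), Atp5b (190.4 ± 14.4), Atp5a1 (188 ± 6.25) and Atp5g3 (188 ± 19.5) led and did not differ beyond their spread, followed by Cox7a2l (171 ± 16.9) and Uqcrh (171 ± 3.77). In 5-FU day4 libraries the order began with Ndufa4 (423 ± 21.1) and Atp5g3 (419 ± 42.4), whose ranges overlapped, then Atp5b (376 ± 19.4) and Atp5a1 (302 ± 14.4). Control libraries began with Atp5g3 (751 ± 19.2, n = 3), which lay above Atp5b (625 ± 11.4) and Ndufa4 (603 ± 4.71). In Nifedipine libraries Ndufa4 came first (525 ± 68.3, n = 4), ahead of Atp5g3 (393 ± 29.4) and Atp5b (361 ± 26.3). The median over the members with reads was 35.1 ± 3.07 in Untreated, 60.8 ± 5.23 in 5-FU day4, 89.0 ± 1.92 in Control and 60.7 ± 4.58 in Nifedipine libraries. By complex, the median of complex V was 67.9 ± 7.59, 112 ± 9.51, 159.5 ± 5.89 and 106 ± 5.93 and that of complex IV 47.9 ± 4.00, 92.2 ± 5.08, 127 ± 3.61 and 99.9 ± 9.61 in Untreated, 5-FU day4, Control and Nifedipine libraries. These 2 complexes overlapped in Nifedipine libraries, and the complex IV median includes isoforms with few reads. Complex I had the lowest median in every library (28.3 ± 2.92, 43.2 ± 1.62, 63.0 ± 2.32 and 44.8 ± 1.08).

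Exon length matters for these genes because they are short. Their exons summed to a median of 744.5 bases, where the genes of the same fit had 3496.5. In these libraries short genes as a class were higher after 5-FU. Among all genes with exons under 500 bases the median log2 fold change after 5-FU was 0.67 (84 genes), and the 11 members of that length had 0.79. From 500 to 1000 bases it was 0.29 over all 555 genes and 0.80 over 34 members, from 1000 to 2000 bases 0.15 over 2212 genes and 0.62 over 22 members, and from 2000 to 4000 bases 0.01 over 4883 genes and 0.63 over 7 members. Of genes under 1000 bases 44.6% were called higher and 8.29% lower, and of the 45 members of that length 41 and 0. With nifedipine the all-gene medians in the same 4 ranges were -0.17, -0.15, -0.09 and -0.01, and those of the members -0.38, -0.46, -0.49 and -0.15. Between Control and Untreated libraries they were 0.91, 0.51, 0.31 and 0.02 over all genes and 1.29, 1.26, 1.24 and 1.07 over members. Under 1000 bases 33 of 46 members fell with nifedipine and 1 rose (29.8% and 14.5% of all genes of that length), and 42 of 45 were higher in culture and 0 lower (52.9% and 14%). Across all genes, which are not independent replicates, the Spearman correlation of length with log2 fold change was -0.205, 0.158 and -0.229 in the 3 comparisons. The ratio of all reads behind the deposited RPKM values to exon reads also differed, at 3.81 to 4.01 in Untreated, 3.14 to 3.33 in 5-FU day4, 2.57 to 2.82 in Control and 2.61 to 3.14 in Nifedipine libraries; its part in the length trend was not tested.

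**Figure D4:**
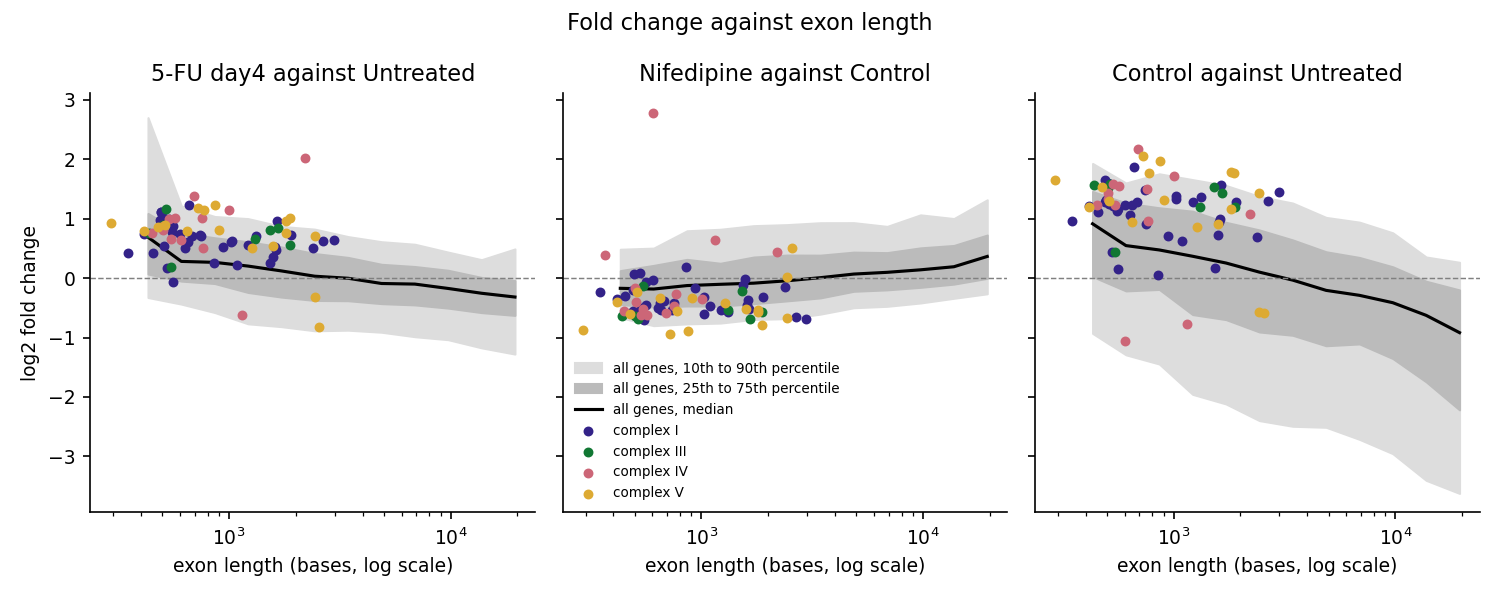
Log2 fold change (y axis) against exon length (x axis, log scale) in the 3 comparisons, with subunit genes as points and the median and spread of all tested genes as a line and bands. The all-gene median falls with length after 5-FU and in culture, and most subunit genes lie above it; with nifedipine most lie below it.

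With the trend on exon length taken out of every library, 50 of 74 genes were called higher and 6 lower after 5-FU (27.1% and 22.2% of all genes), with a median of 0.36. By complex 22, 6, 9 and 13 were higher for I, III, IV and V. Some members with longer exons moved little: Ndufs1 went from 0.63 to 0.61, Atp5a1 from 0.71 to 0.65, Atp5b from 1.01 to 0.91 and Uqcrc1 from 0.85 to 0.73. Among the short genes Cox5a kept 0.98 and Atp5g3 0.80, whereas Atp5k went from 0.92 to 0.19 (adjusted p = 0.231) and Uqcr11 to 0.15 (adjusted p = 0.379), while Cox4i1 went to 0.15 and was still called (adjusted p = 0.0332). The 6 called lower were Cox7a2l, Atp5s, Atp5sl, Uqcrh, Ndufa6 and Ndufa7. When GC content was taken out as well, 40 were higher and 6 lower (27% and 22.1% of all genes), with a median of 0.35. With nifedipine, removal of the length trend left 42 lower and 6 higher of 75 with a median of -0.30 (24.6% and 24.8% of all genes), the added ones being Ndufa1, Ndufa7 and Ndufb11, and GC content taken out as well left 43 and 6 (25.1% and 25.3%). Between Control and Untreated libraries 57 were higher and 8 lower (36.1% and 35% of all genes), with a median of 0.63, and with GC content as well 57 and 9 (36% and 35%). The short and long members can be set side by side with the length trend removed. After 5-FU 27 of 45 under 1000 bases and 23 of 29 from 1000 bases were called higher, with medians of 0.31 and 0.46. With GC content taken out as well, 17 of the 45 short members were called higher and 4 lower, with a median of 0.21. Of the 29 long members 23 were then called higher and 2 lower, with a median of 0.50.

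**Figure D5:**
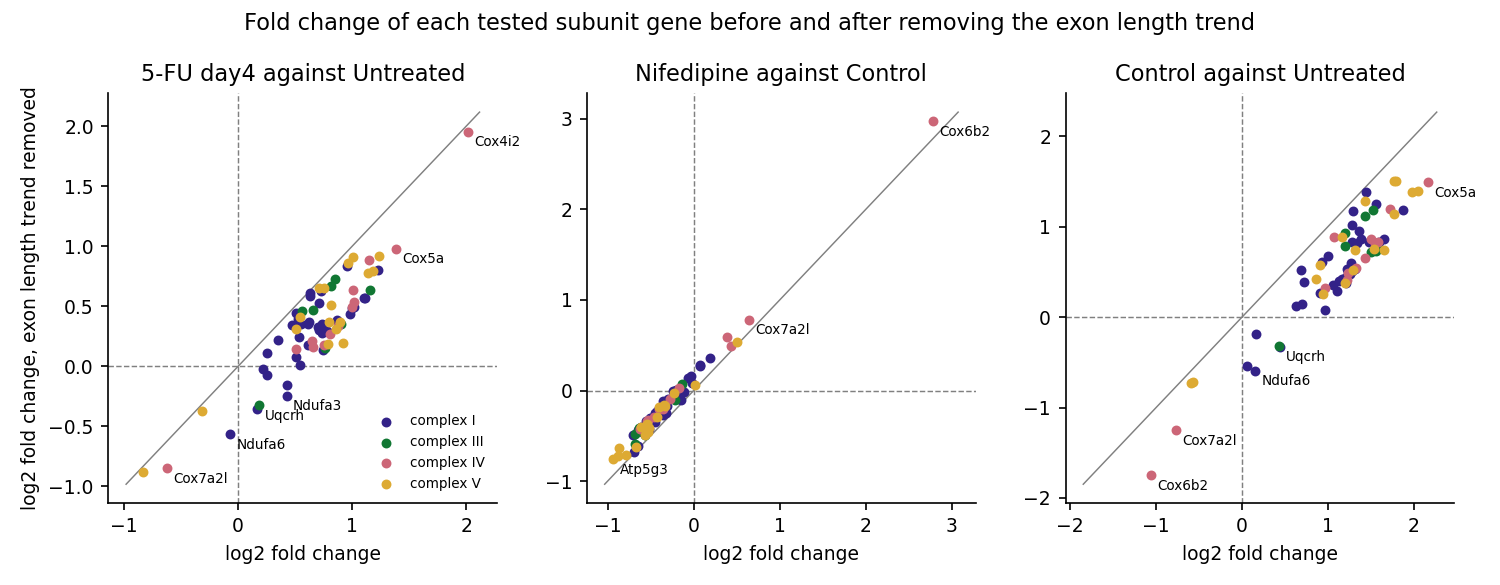
Log2 fold change with the exon length trend removed (y axis) against the value without that step (x axis) for each tested subunit gene in the 3 comparisons, with the line of equal values. After 5-FU and in culture the points lie below the line, and Uqcrh comes to lie below 0; with nifedipine they lie above the line.

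The comparison of 5-FU with Untreated and that of nifedipine with Control share no library, so their calls can be set side by side. Of 74 members tested in both, 53 were higher after 5-FU and lower with nifedipine, which is 81.5% of those higher after 5-FU and 98.1% of those lower with nifedipine. Cox7a2l and Atp5s were lower after 5-FU and higher with nifedipine, and no member was called in the same direction in both. Over all 12577 genes tested in both, 57.1% of those higher after 5-FU were lower with nifedipine, and 66.1% of those lower with nifedipine were higher after 5-FU. These shares depend on how many genes were called at all. Of the 74 members 65 were higher after 5-FU and 54 lower with nifedipine, against 3554 and 3071 of the 12577 genes. The larger shares of members therefore do not show a closer opposition than over all genes. Across members the Spearman correlation of the 2 log2 fold changes was -0.47 (n = 74), and across all genes it was -0.46. With the length trend removed the shares were 68.0% and 81.0% for members and 56.4% and 65.1% for all genes. The shares of members thus dropped more than those of all genes, with 50 members then higher after 5-FU and 42 lower with nifedipine. In that fit 1 member was called in the same direction in both.

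Complex II, which is encoded wholly in the nucleus and lies outside the symbols used, moved in the same directions. Its 4 genes all rose after 5-FU (26.8% of all genes), Sdhd by 0.96, Sdhb by 0.93, Sdha by 0.47 and Sdhc by 0.42. With nifedipine 3 fell (24.2% of all genes), Sdhd by 0.75, Sdhb by 0.52 and Sdha by 0.40, while Sdhc had 0.02 (adjusted p = 0.878). Of 9 carriers and subunits with other symbols all 9 rose after 5-FU (26.8% of all genes). Cytochrome c (Cycs, 1.38), the electron transfer flavoprotein Etfa (0.80) and the ATP synthase subunit Usmg5 (0.86) had the smallest p-values. Of the 9, 7 fell with nifedipine (24.2% of all genes), Cycs and cytochrome c1 (Cyc1) each by 1.01 and Etfb by 0.77. Atpif1, the inhibitor of the ATP synthase, had 0.14 (adjusted p = 0.128). Of assembly factors, 7 of 13 for complex I, 1 of 6 for complex III, 8 of 21 for complex IV and 2 of 3 for complex V rose after 5-FU. None fell, where 26.8% of all genes were called higher and 23.8% lower. By p-value, and not by size of change, Ndufaf6 (1.18), Ndufaf4 (0.93) and Nubpl (0.77) came first for complex I, Uqcc2 (1.102) was the one for complex III, Cox15 (0.41), Cox17 (0.63) and Cox10 (0.59) came first for complex IV, and Tmem70 (0.63) and Atpaf2 (0.57) rose for complex V. With nifedipine 7, 2, 4 and 1 of the assembly factors fell, among them Ndufaf4 by 0.73, Uqcc2 by 0.47, Cox11 by 0.61 and Atpaf2 by 0.46. The 1 that rose was Cox14 (0.46, adjusted p = 0.0103), a factor for the translation of mitochondrial Cox1. Of all genes 24.2% were called lower and 25.8% higher with nifedipine. The median of these lists after 5-FU was 0.52, 0.06, 0.27 and 0.57, beside 0.73 for the 74 subunit genes; the lists' difference from the subunits was not tested.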

How the data were processed

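RNA was sequenced from 15 libraries of 100 sorted HSCs, prepared with Nextera XT per the labels' protocols, and mapped to mm10 per the submitters' processing notes; the sources used here name no aligner or read counter, nor how reads that fit several places were handled, which matters for small subunits with processed pseudogenes. The authors deposited exon read counts and RPKM values per gene. Counts were tested with edgeR 4.0.16 (R 4.3.3) by quasi-likelihood F tests (filterByExpr, TMM, group as the only term), each comparison on its own libraries, with Benjamini-Hochberg adjustment over all tested genes and a call at 0.05 or less. CPM values use TMM factors over all 15 libraries. Exon length was recovered from counts and deposited RPKM, and its trend was removed per library with a smooth curve (mgcv 1.9.3). The fits were tested on simulated data. No 2 libraries of a group agreed within counting noise. Members and lists were chosen with earlier results of these data known. Values per library are given for the 3 largest changes of each complex and comparison with at least 10 CPM in the higher group, for genes called against their complex, and for 15 genes always shown, of which 1 is not reported here; of other lists, the 3 smallest p-values. The promoter rule was narrowed, after the data were seen, to matches before the start. Genes that share exon bases with another coding gene are uncertain without strand: Ndufa13, Ndufa2, Ndufa4l2, Ndufb11, Ndufb5, Ndufb6, Uqcrb, Uqcrc2, Cox6a2, Atp5a1, Atp5f1 and Atp5j on the opposite strand, and Ndufb2, Ndufb8 and Ndufb9 on the same. Alternatives were DESeq2 1.42.0, no filter, RPKM read totals as library size, removal of length and GC trends, the replicate number as a block and leaving out libraries.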

Additional observations from a re-analysis of the deposited data

Results flagged for a closer look

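Of 111 sets of values within a group of 4 libraries, 7 held a library far from the rest, and chance alone flags about 1 in 20. Untreated 3 stood above its group for Atp5o (44.8 CPM against 35.1 to 35.2) and for Cox6a1 (38.9 against 29.2 to 30.7). Untreated 1 was low for Ndufa1 (24.0 against 26.4 to 26.7). 5-FU day4 3 was low for Atp5a1 (682 against 746 to 759), and 5-FU day4 1 was high for Atp5o (89.5 against 77.9 to 79.0). Nifedipine 2 was low in the complex IV sum (854 against 1012 to 1020.4). Nifedipine 4 held the 1 read of Ndufa4l2 in its group, which is 0.0490 CPM. In none of the first 6 did the library reach the range of the group it was compared with.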

How the results depend on the processing

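Leaving out 1 library at a time gave 63 to 65 genes higher and 2 to 3 lower after 5-FU, 2 to 3 higher and 49 to 54 lower with nifedipine, and 66 to 67 higher and 3 to 4 lower in culture. The replicate numbers did not pair the libraries (correlations of deviations from -0.150 to 0.148 for 5-FU and Untreated), and the replicate block gave 63 and 2, 3 and 55, and 66 and 3. Removing the exon length trend gave 6 lower after 5-FU, 6 higher with nifedipine and 8 lower in culture; removing length and GC trends, an alternative chosen after seeing the data as were both removals of 2 libraries, gave 40 higher and 6 lower, 6 higher, and 9 lower. The tested members above 0 went from 70 to 64 after 5-FU, from 9 to 15 with nifedipine and from 70 to 65 in culture. With GC content taken out as well they were 62, 14 and 65. Only members called with or without that step are named here. The length trend removed turned these signs among them: after 5-FU Ndufa3 (-0.25), Ndufa7 (-0.36), Ndufb4 (-0.15) and Uqcrh (-0.32), with nifedipine Ndufa4 (0.0035), in culture Ndufa6 (-0.59), Ndufa7 (-0.33), Ndufb11 (-0.54) and Uqcrh (-0.32). Length and GC together turned, among such members, after 5-FU, Cox7c (-0.026), Ndufa3 (-0.43), Ndufa7 (-0.42), Ndufb4 (-0.31), Ndufc1 (-0.093), Ndufs5 (-0.069) and Uqcrh (-0.44), and in culture Ndufa6 (-0.75), Ndufa7 (-0.31), Ndufb11 (-0.56), Ndufs4 (-0.44) and Uqcrh (-0.46). Their cause was not tested. As deposited RPKM the median member level was 9.68, 19.6, 29.97 and 21.2 against 35.1, 60.8, 89.0 and 60.7 CPM per kilobase, a change of denominator. Under RPKM read totals 1844 of all genes were called lower after 5-FU against 3184. Calls that held under every alternative were 38 of 65 higher after 5-FU, 42 of 54 lower with nifedipine and 55 of 66 higher in culture. Members of few reads, such as Ndufa4l2 and Cox6a2, are limited by depth.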

Other observations

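Genes of coenzyme Q synthesis did not share 1 direction. After 5-FU 4 of 13 were higher and 2 lower, which is near the 26.8% and 23.8% of all genes, with Coq7 (1.56) and Pdss1 (0.87) higher and Adck3 (-1.16) and Adck4 (-0.63) lower. With nifedipine 6 were lower and 1 higher (24.2% and 25.8% of all genes), with Coq7 at -1.14, Pdss1 at -0.90 and Adck3 at 1.39. Their median after 5-FU was 0.00, beside 0.73 for the subunit genes.

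Of 10 known regulators of respiratory genes, 7 were higher and 1 lower after 5-FU (26.8% and 23.8% of all genes), led by the coactivator Pprc1 (0.83), the ETS factor subunit Gabpa (0.40) and Yy1 (0.34), and Ppargc1a was the one lower (-0.87). With nifedipine 6 were lower and 0 higher (24.2% and 25.8% of all genes), the lower ones including Pprc1 (-0.70), Nrf1 (-0.55) and Gabpa (-0.48). Gabpa shares exon bases with Atp5j on the opposite strand.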
